A study of Mus musculus with 5 samples.

Results

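The 35 genes described here encode the contractile filaments, the calcium machinery and the energy enzymes of skeletal muscle. They were chosen by name as a gauge of chewing muscle left on the dissected tissue, and all 35 had a row on the array, out of 19938 genes tested. The tissue was cartilage from the head of the jaw joint, the mandibular condyle, of 129/Sv mice. The tested mice lacked discoidin domain receptor 1, a collagen-binding receptor tyrosine kinase (DDR-1-KO, mice 2 and 5, n = 2), and the others were wild type (mice 3, 4 and 6, n = 3). Total RNA was taken straight from the cartilage and hybridised to Affymetrix mouse gene 1.0 ST arrays, 1 array a mouse, and the labels name the strain, genotype and tissue of each mouse and no further treatment. Knockout 2 and wild type 3 share array run 1, and the other arrays share run 2, as the array names in the labels show.

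In a sarcomere, the contractile unit of striated muscle, thick filaments of myosin pull on thin filaments of actin that are anchored at the Z-disc. Calcium released from the sarcoplasmic reticulum binds troponin C on the thin filament, troponin I then releases its block, and troponin T passes the shift to tropomyosin. Fast and slow fibres use different genes for most of these parts. The lateral pterygoid muscle inserts at the neck of the condyle, next to the cartilage sampled here, and chondrocytes are not contractile cells.

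The level given throughout is the log2 RMA signal, and a change is knockout minus wild type on that scale. Over all genes the arrays had medians from 5.05 to 5.17 and highest signals from 10.1 to 10.9, and values over genes spread with an SD of 0.802 and 0.906 in knockouts 2 and 5, against 0.991 to 1.02 in wild type. Ddr1 itself was at 5.96 and 5.80 in knockouts 2 and 5, against 6.02 in all wild types (limma's adjusted p = 0.377), and which part of the gene was deleted was not used here, so it does not check the labels. Defining cartilage genes were present in the list of 17 cartilage markers, whose mean level was 5.48 and 5.76 in knockouts 2 and 5, against 5.88 to 5.91 in wild type. Of these markers 3 fell (Sox9, Comp and Col9a3) and none rose, beside 2.18% and 1.55% of all genes. Among 8 tendon and fibrous markers 1 fell (Egr1), and among 8 nerve markers 1 fell (Nefl) and 1 rose (Cdh19, a cadherin of Schwann cell precursors). Cdh19 was at 3.27 and 3.19 in knockouts 2 and 5, against 2.73 in all wild types, with a change of 0.069 after cyclic loess and -0.00080 after quantile normalisation. Both Cdh19 and Nefl were below the median of all genes on every array. In limma, the adjusted p of these 6 calls ran from 0.0517 to 0.0886 with the run as a block, from 0.052 to 0.661 after cyclic loess, and from 0.106 to 0.243 without a wild-type array, so none kept its call. The part of these other cell types in the muscle values was not tested.

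Among the 35 muscle genes, 1 passed the test and 34 did not. Pygm, the glycogen phosphorylase of muscle, fell in knockout cartilage, and its signal was below the median of all genes on every array. No muscle gene rose, at the adjusted threshold of 0.05 or at an unadjusted p under 0.05 in limma, and 7 were lower at that unadjusted level, beside 10.9% of all genes (18.2% in either direction). Over all genes, 3.73% passed, 1.55% as rises and 2.18% as falls, so 1 fall among 35 is near the background. The 35 genes had values from 3.83 to 6.99, with a mean of 5.43 and 5.52 in knockouts 2 and 5, against 5.69, 5.62 and 5.68 in wild types 3, 4 and 6. Both knockout means lay below all wild-type means. Their median change was -0.11, beside -0.0083 over all genes tested, and 26 of the 35 changes were below 0, beside 51.1% of all genes. That median turned to 0.0050 after quantile normalisation, 0.0092 after cyclic loess and 0.019 once arrays were centred and scaled. RMA signals of different probe sets also reflect how well the probes bind, so these levels do not rank the genes. In whole tissue, fewer muscle cells and less RNA per muscle cell cannot be told apart. Whether either differed, or the scale of the arrays set the lower knockout means, was not tested.

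**Figure D1:**
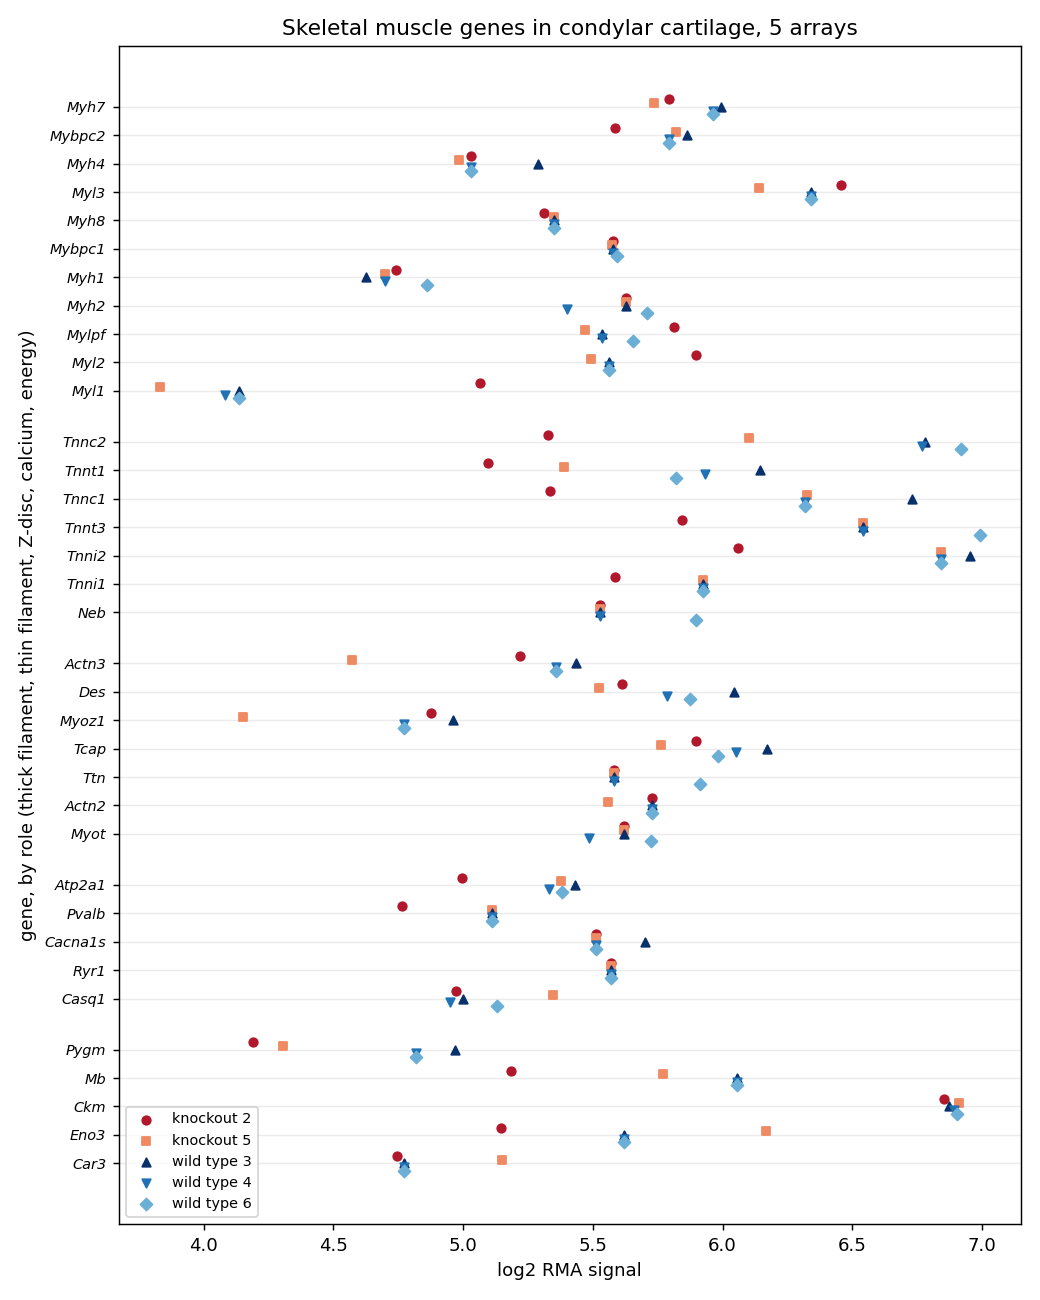
Each row is 1 of the 35 muscle genes, grouped by role, and each point is the log2 RMA signal of 1 array, with knockout arrays in red and orange and wild-type arrays in blue. Values lie between 3.83 and 6.99, the wild-type points often coincide, and knockout 2 stands to the left in all 6 troponin genes.

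The sequences before the starts of 4 of these genes are shown, for the gene that fell, the lowest changes and 1 gene that was level. Pygm is the gene that passed the test, Tnnc2 and Tnnt1 had the lowest changes, and Ckm was nearly level on all arrays. The windows are the 250 bases before the RefSeq start in GRCm38.p6, 5′ to 3′ on the gene's strand, at chr19:6384158-6384407, plus strand for Pygm, chr2:164779735-164779984, minus strand for Tnnc2, chr7:4515976-4516225, minus strand for Tnnt1 and chr7:19410844-19411093, plus strand for Ckm. Capitals mark E-boxes, CANNTG on either strand, the letters that myogenic helix-loop-helix factors such as MyoD bind.
Pygm: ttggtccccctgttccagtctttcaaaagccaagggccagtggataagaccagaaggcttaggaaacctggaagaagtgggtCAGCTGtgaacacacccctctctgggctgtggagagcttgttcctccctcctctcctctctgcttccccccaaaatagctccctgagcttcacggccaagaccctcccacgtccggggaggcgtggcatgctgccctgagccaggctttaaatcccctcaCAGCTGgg
Tnnc2: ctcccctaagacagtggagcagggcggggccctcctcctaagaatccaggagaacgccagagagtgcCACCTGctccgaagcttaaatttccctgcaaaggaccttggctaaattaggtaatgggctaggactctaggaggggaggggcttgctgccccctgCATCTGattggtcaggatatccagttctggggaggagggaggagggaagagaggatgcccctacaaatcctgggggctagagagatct
Tnnt1: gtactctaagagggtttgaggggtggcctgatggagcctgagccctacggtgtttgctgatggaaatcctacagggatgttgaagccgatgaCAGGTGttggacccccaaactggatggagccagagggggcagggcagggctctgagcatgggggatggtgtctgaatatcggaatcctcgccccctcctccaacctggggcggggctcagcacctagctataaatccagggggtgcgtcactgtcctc
Ckm: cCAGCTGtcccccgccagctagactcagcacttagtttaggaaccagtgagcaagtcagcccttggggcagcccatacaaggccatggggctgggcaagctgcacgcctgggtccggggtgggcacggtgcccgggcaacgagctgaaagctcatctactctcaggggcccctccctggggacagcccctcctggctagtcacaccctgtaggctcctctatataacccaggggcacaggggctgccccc
The Pygm window holds 2 E-boxes, both with the letters CAGCTG. Tnnc2 holds 2 and Tnnt1 holds 1, of other letters, and Ckm holds 1 of the CAGCTG kind.

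Upstream windows were matched for 27 of the 35 genes, with the first window in the table taken for the 5 genes that have several. Tnnt3, Tnni2, Actn3, Neb, Myoz1, Myot, Tcap and Car3 had no window. An E-box was found in 23 of the 27, or 85.2%, beside 66.0% of 27025 windows of the same length, 1 for each gene in the table. The narrower CAGCTG, which is also counted among the E-boxes, was found in 11, or 40.7%, beside 12.8%. CATTCC on either strand, the core of the M-CAT element bound by TEAD factors, was found in 9, or 33.3%, beside 12.6%. The MEF2 motif was found in 5, or 18.5%, beside 3.01%, in Myh1, Myh4, Myh8, Pvalb and Ttn. None of those 5 genes passed the test. These matches describe letters, not bound sites.

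The thin filament had the lowest changes, and they lay mostly in knockout 2. All 7 of its genes had changes below 0, from -1.11 to -0.12, with a median of -0.50, and none passed the test. At an unadjusted p under 0.05 in limma 2 of them were lower, beside 10.9% of all genes. Over all genes 51.1% of changes were below 0. Among the 6 troponin genes, knockout 2 was below every wild-type array in 6 and knockout 5 in 2, beside 41.4% and 31.2% of all genes. Their mean level was 5.54 and 6.19 in knockouts 2 and 5, against 6.51, 6.39 and 6.47 in wild types 3, 4 and 6. The median change of the troponins was -0.56, or -0.35 after cyclic loess, -0.41 after quantile normalisation and -0.34 with arrays centred and scaled, where 5 of the 6 stayed below 0 and Tnni1 was at 0.0012. Within run 1 the median was -0.97, with all 6 below 0, and within run 2 it was -0.11, with 3 below 0.

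Tnnc2, the calcium sensor of fast fibres, was at 5.33 and 6.10 in knockouts 2 and 5, against 6.78, 6.77 and 6.92 in wild types 3, 4 and 6. Both knockout values were below all wild-type values, and the knockout mice were further from each other than the wild-type mice were. Its change of -1.11 (SE 0.268, adjusted p = 0.15 in limma) is a signal 2.15 times higher in wild type, and it was the one muscle gene with a difference of at least 2-fold. It was -0.89 after cyclic loess, -1.45 within run 1 and -0.74 within run 2. Tnnc1, its counterpart in slow fibres and heart, was at 5.34 and 6.32 in knockouts 2 and 5, against 6.73 in wild type 3 and 6.32 in the other two. Here knockout 5 lay inside the wild-type range (change -0.62, SE 0.371, adjusted p = 0.399 in limma), and the change was -1.39 within run 1 and 0.0084 within run 2.

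Tnnt1, the slow-fibre troponin T that ties the complex to tropomyosin, was at 5.10 and 5.39 in knockouts 2 and 5, against 6.14, 5.93 and 5.82 in wild types 3, 4 and 6. The groups did not overlap, and the change of -0.72 (SE 0.148, limma's adjusted p = 0.112) was -1.05 within run 1 and -0.49 within run 2. Tnnt3, the fast-fibre troponin T, was at 5.84 and 6.54 in knockouts 2 and 5, against 6.54 in wild types 3 and 4 and 6.99 in wild type 6. Knockout 5 and both of those wild types shared the same deposited value, so the change of -0.50 (adjusted p = 0.399) rests on knockout 2 and wild type 6. Tnni2, the fast-fibre inhibitory subunit, was at 6.06 and 6.84 in knockouts 2 and 5, against 6.95 in wild type 3 and 6.84 in wild types 4 and 6. Tnni1, the slow-fibre inhibitory subunit, was at 5.59 in knockout 2 and 5.93 on every other array. Neb, nebulin, the giant ruler of the thin filament, was at 5.53 on 4 arrays and 5.90 in wild type 6.

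The thick filament showed no shared direction. Of its 11 genes, 7 had changes below 0 and 4 above 0, from -0.21 to 0.33 with a median of -0.0081. None passed the test, and 1 was lower at an unadjusted p under 0.05 in limma. Of all genes, 51.1% had changes below 0 and 10.9% were lower at that unadjusted level. Myh7, the slow and cardiac myosin heavy chain, was at 5.79 and 5.74 in knockouts 2 and 5, against 5.996 in wild type 3 and 5.96 in wild types 4 and 6. The groups did not overlap, and the change of -0.21 (SE 0.0277, limma's adjusted p = 0.0554) was nearest to the threshold among the genes that missed it. Cyclic loess left -0.046 (adjusted p = 0.747), and centring and scaling the arrays left -0.022.

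The fast and perinatal heavy chains Myh1, Myh2, Myh4 and Myh8 lie next to each other on chromosome 11 and are close relatives, so their probes may share signal. Myh4, the heavy chain of the fastest fibres, was at 5.03 and 4.98 in knockouts 2 and 5, against 5.29 in wild type 3 and 5.03 in wild types 4 and 6. Myh2, of fast oxidative fibres, was at 5.63 in both knockout mice and in wild type 3, and at 5.40 and 5.71 in wild types 4 and 6. Myh1, of intermediate fast fibres, ranged from 4.70 to 4.74 in knockout and from 4.62 to 4.86 in wild type. Myh8, the perinatal form, was at 5.31 in knockout 2 and 5.35 elsewhere. The knockout values of these 4 genes lay inside or within 0.05 of the wild-type range, and their adjusted p ran from 0.503 to 1.

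The myosin light chains parted the knockout mice. For all 4 genes knockout 2 was above every wild-type array and knockout 5 below every one, beside 28.7% and 31.2% of all genes. Myl1, the essential light chain of fast fibres, was at 5.06 and 3.83 in knockouts 2 and 5, against 4.14, 4.08 and 4.14 in wild types 3, 4 and 6. Except in knockout 2, Myl1 was below the median of all genes. Its change over all arrays was 0.33 (SE 0.417, limma's adjusted p = 0.612), and it was 0.93 within run 1 and -0.28 within run 2. Mylpf, the regulatory light chain of fast fibres, was at 5.81 and 5.47 in knockouts 2 and 5, against 5.54, 5.54 and 5.66 in wild types 3, 4 and 6. Myl2, the slow and ventricular regulatory chain, was at 5.90 and 5.49 in knockouts 2 and 5, against 5.56 in each wild type. Myl3, its essential partner, was at 6.46 and 6.14, against 6.34 in each wild type. In knockout 2 the 4 light chains were thus above every wild-type array and the 6 troponins below every one. Fibres were not resolved in RNA of whole tissue. The myosin-binding proteins of the thick filament differed little, with Mybpc1 from 5.57 to 5.58 in knockout and from 5.58 to 5.59 in wild type, and Mybpc2 at 5.59 and 5.82 in knockouts 2 and 5, against 5.79 to 5.86 in wild type.

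**Figure D2:**
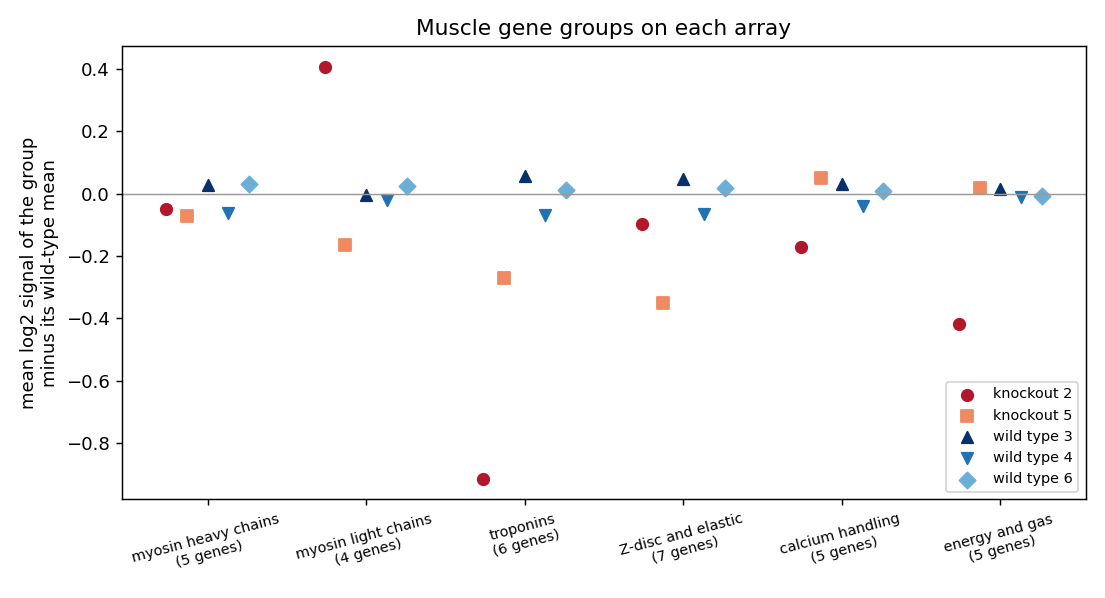
For 6 groups of muscle genes, each point is the mean log2 RMA signal of the group on 1 array minus the mean of the 3 wild-type arrays for that group, with knockout arrays to the left of wild-type arrays. Knockout 2 lies below every wild-type array for the troponins and the Z-disc, calcium and energy genes and above them for the myosin light chains. Knockout 5 is lowest for the Z-disc genes and for the myosin heavy and light chains.

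At the Z-disc, 6 of 7 genes had changes below 0, beside 51.1% of all genes, with a median of -0.24, and none passed the test. At an unadjusted p under 0.05 in limma 2 were lower, beside 10.9% of all genes. The mean level of the group was 5.51 and 5.25 in knockouts 2 and 5, against 5.65, 5.54 and 5.62 in wild types 3, 4 and 6. Actn3, the alpha-actinin of fast fibres that crosslinks actin, was at 5.22 and 4.57 in knockouts 2 and 5, against 5.44, 5.36 and 5.36 in wild types 3, 4 and 6. Its groups did not overlap (change -0.49, SE 0.221, limma's adjusted p = 0.399), and knockout 5 was the lower of the knockout mice. Myoz1, a Z-disc protein that binds calcineurin, was also lowest in knockout 5, at 4.15, with 4.88 in knockout 2, against 4.96, 4.77 and 4.77 in wild types 3, 4 and 6.

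Des, desmin, the intermediate filament that links Z-discs and is also made by smooth muscle, was at 5.61 and 5.52 in knockouts 2 and 5, against 6.04, 5.79 and 5.88 in wild types 3, 4 and 6 (change -0.33, SE 0.0938, limma's adjusted p = 0.194). Tcap, telethonin, which caps titin, was at 5.90 and 5.76 in knockouts 2 and 5, against 6.17, 6.05 and 5.98 in wild types 3, 4 and 6 (change -0.24, adjusted p = 0.261). Both genes had groups that did not overlap. Their changes were -0.18 and -0.068 after cyclic loess. Actn2, the alpha-actinin of all striated fibres, was at 5.73 except in knockout 5, where it was 5.56. Ttn, titin, the elastic filament from Z-disc to M-line, was at 5.58 on 4 arrays and 5.91 in wild type 6, the array in which nebulin was also high. Myot, myotilin, was at 5.62 in both knockout mice, inside the wild-type range of 5.48 to 5.72.

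Of the 5 calcium genes none passed the test, none had an unadjusted p under 0.05 in limma, and none had groups that did not overlap. Their median change was -0.063. Ryr1, the calcium release channel, was at 5.57 on every one of the 5 arrays. Cacna1s, the voltage sensor that opens it, was at 5.51 in both knockout mice, against 5.70 in wild type 3 and 5.51 in wild types 4 and 6. Atp2a1, the pump that returns calcium to the store in fast fibres, was at 4.996 and 5.38 in knockouts 2 and 5, against 5.43, 5.33 and 5.38 in wild types 3, 4 and 6. Pvalb, parvalbumin, a calcium buffer of fast fibres, was at 4.76 in knockout 2 and 5.11 elsewhere. Casq1, the calcium store protein of fast fibres, was at 4.97 and 5.35 in knockouts 2 and 5, against 5.001, 4.95 and 5.13 in wild types 3, 4 and 6.

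Among the 5 energy genes, Pygm fell and 4 did not pass. Pygm was at 4.19 and 4.30 in knockouts 2 and 5, against 4.97, 4.82 and 4.82 in wild types 3, 4 and 6. Both knockout values were below all wild-type values, and the gap between the groups exceeded the spread within them. The means were 4.25 ± 0.081 (SD, n = 2) in knockout and 4.87 ± 0.086 (SD, n = 3) in wild type, where 2 of the 3 values were identical. This is a change of -0.62 (SE 0.0717, adjusted p = 0.0442 in limma), 1.54 times higher in wild type, with -0.78 within run 1 and -0.52 within run 2. It stayed between -0.68 and -0.55 under every scaling, but passed under 1 of the 4 and had adjusted p = 0.0589 after cyclic loess and 0.105 with the run as a block. Without wild type 3, 4 or 6 the call was lost, at adjusted p = 0.142, 0.206 and 0.217.

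Mb, myoglobin, the oxygen store of slow and oxidative fibres, was at 5.19 and 5.77 in knockouts 2 and 5, against 6.05 in each wild type. The groups did not overlap (change -0.58, SE 0.198, limma's adjusted p = 0.271), and the SE rests on the knockout mice because the wild-type values were identical. Ckm, the creatine kinase that buffers ATP in muscle, was at 6.86 and 6.91 in knockouts 2 and 5, against 6.87, 6.89 and 6.90 in wild types 3, 4 and 6. All its values lay within 0.06 of each other (change -0.0056, SE 0.0269, adjusted p = 0.941), and the change was 0.27 after cyclic loess (adjusted p = 0.166). Eno3, the enolase of muscle glycolysis, was at 5.15 and 6.17 in knockouts 2 and 5, against 5.62 in each wild type, so the knockout mice lay on opposite sides of wild type. Car3, a carbonic anhydrase of slow fibres and of fat cells, was at 4.74 and 5.15 in knockouts 2 and 5, against 4.77 in each wild type. Of the 11 measured adipocyte markers, 5 had changes below 0 and 6 above 0, with a median of 0.030. Their means were 5.10 and 5.17 in knockouts 2 and 5, against 5.20 to 5.22 in wild type. Of these adipocyte markers 1 fell, beside 2.18% of all genes. This was Cidec, a lipid droplet protein, at 5.04 and 5.12 in knockouts 2 and 5, against 6.03, 6.20 and 6.03 in wild types 3, 4 and 6 (change -1.01, SE 0.0712, adjusted p = 0.0231 in limma, 0.062 with the run as a block and 0.128 to 0.179 without a wild-type array). Cidea, of the same family, was at 4.82 and 4.65 in knockouts 2 and 5, against 6.02, 5.59 and 5.64 in wild types 3, 4 and 6 (adjusted p = 0.0791). Lep, from the same list, lay the other way, at 5.07 and 4.38 in knockouts 2 and 5. Wild types 3, 4 and 6 had 4.09, 4.30 and 4.30 (change 0.50, limma's adjusted p = 0.399). The part of fat cells in the level of Car3 was not tested.

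In all, 8 of the 35 genes had both knockout values below all wild-type values and none had both above, beside 18.6% and 13.0% of all genes (31.5% in either direction). These 8 were Tnnc2, Tnnt1, Pygm, Mb, Actn3, Des, Tcap and Myh7. Counted by mouse, both knockout values were below the wild-type mean in 17 genes, above it in 2 and on opposite sides in 11. In 5 genes a knockout value equalled that mean. The same counts were not made over all genes, so these do not set the muscle genes apart. Over all genes 51.1% of changes were below 0. Of the fast-fibre genes 9 of 13 had changes below 0 (median -0.11), and of the slow-fibre genes 6 of 7 (median -0.17). After cyclic loess these medians were -0.057 and -0.011. Neither fibre class held a call.

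**Figure D3:**
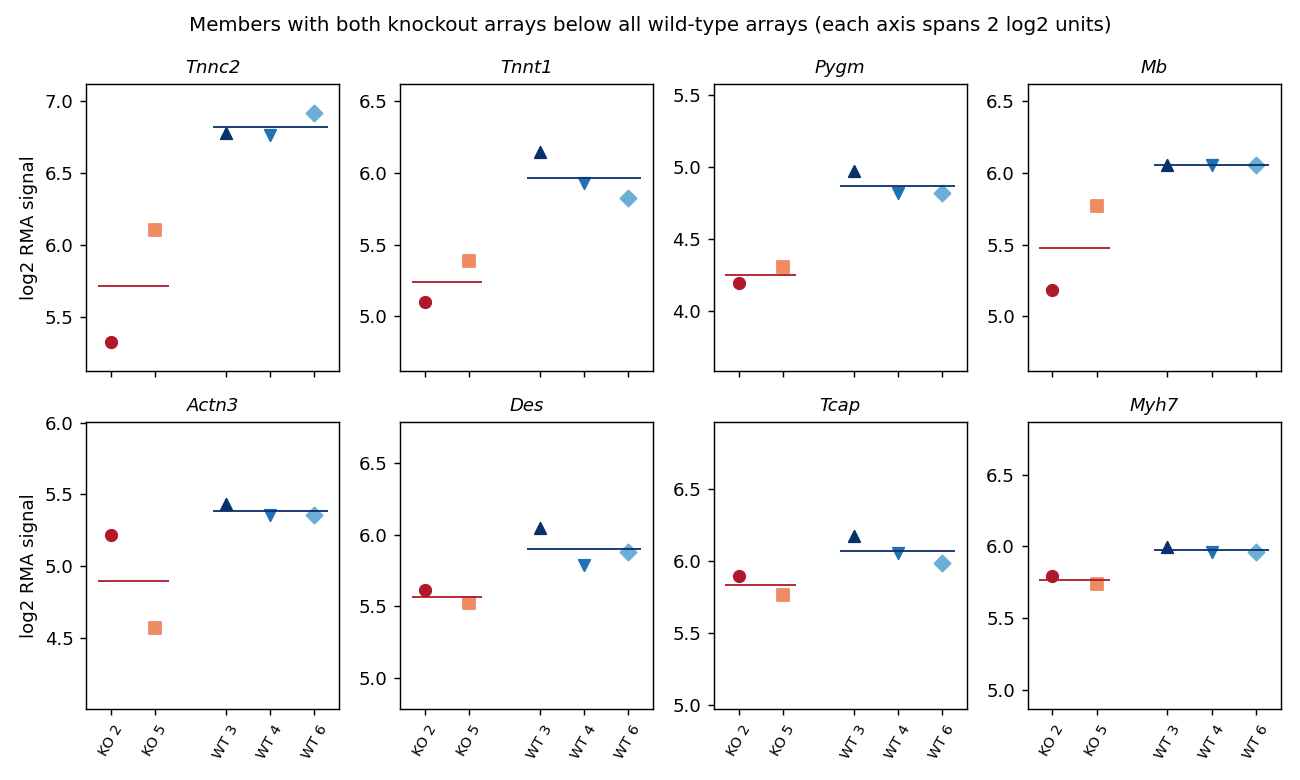
The 8 muscle genes whose knockout values all lie below their wild-type values, with the log2 RMA signal of each array as a point and the group mean as a line, knockout to the left. Tnnc2 has the widest gap, while Myh7 and Tcap differ by 0.21 and 0.24, and each vertical axis spans the same number of log2 units.

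Values repeated between arrays in most of these genes. In 28 of the 35, or 80.0%, at least 2 arrays had the same deposited value, beside 87.3% of all genes, and the 3 wild-type values were identical in 10. Median polish can return such repeats, so they do not show equal expression, and an SE built on them does not measure the spread between mice. Among the wild-type mice, wild type 3 was above both others in 13 of the 35 genes, beside 21.0% of all genes, and below both in 2. Wild type 6 was above both others in 11 and wild type 4 in none. The widest wild-type range was 0.45, in Tnnt3.

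Other muscle genes from a second list were looked at in the same fit. Of 41 measured genes of the sarcomere and the triad, where the surface membrane meets the calcium store, 1 fell and none rose. Changes below 0 numbered 30, with a median of -0.16. At an unadjusted p under 0.05 in limma 11 genes were lower and none higher. Of all genes, 2.18% fell and 1.55% rose, 51.1% had changes below 0 and 10.9% were lower at that unadjusted level. Xirp1, an actin-binding protein of the intercalated disc and of injured fibres, fell to 5.93 and 5.96 in knockouts 2 and 5, against 6.16 in each wild type (change -0.22, SE 0.0187, limma's adjusted p = 0.0304). Cyclic loess left -0.032 (adjusted p = 0.779) and centring and scaling the arrays -0.0030, and its adjusted p was 0.077 with the run as a block and 0.151, 0.197 and 0.217 without wild type 3, 4 or 6. Acta1, skeletal alpha-actin, the body of the thin filament, was at 5.60 and 5.59 in knockouts 2 and 5, against 6.68, 6.32 and 6.32 in wild types 3, 4 and 6. Its groups did not overlap, its change was -0.84 (SE 0.141, adjusted p = 0.0789) and it was -0.66 after cyclic loess. Trim54, a ubiquitin ligase bound to microtubules and titin, was at 5.50 and 5.78 in knockouts 2 and 5, against 6.38, 6.57 and 6.25 in wild types 3, 4 and 6 (adjusted p = 0.1).

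Of 22 further energy genes of muscle, a list that also holds Pygm, no other gene passed, and the median change was -0.088. Among 22 myogenic factors, junction and satellite cell genes, a list that also holds Des, none passed, with a median of -0.065. At an unadjusted p under 0.05 in limma 4 were lower, Des among them, and none higher, beside 10.9% of all genes lower. Pax7, the factor of muscle stem cells, was at 5.59 and 5.999 in knockouts 2 and 5, against 6.53, 6.53 and 6.57 in wild types 3, 4 and 6 (change -0.75, SE 0.141, adjusted p = 0.096). No gene passed among 13 cardiac markers or among 11 smooth muscle and mural markers. At an unadjusted p under 0.05 in limma 2 and 1 of these were lower and none higher, beside 10.9% of all genes lower. The cardiac list had means of 5.33 and 5.38 in knockouts 2 and 5, against 5.53 to 5.58 in wild type, and the smooth muscle list 5.17 and 5.42, against 5.37 to 5.38.

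The scaling of the arrays moved the muscle genes as a whole. With each array centred on its median, 20 of the 35 changes were below 0, beside 8174 of all 19938 genes. There 1 muscle gene passed, beside 343 rises and 292 falls over all genes. After quantile normalisation or cyclic loess 17 of the 35 were below 0, beside 9661 and 9584 of all genes. Once arrays were centred and scaled 15 were below 0, beside 8644 of all genes. The median of all genes moved from -0.0083 to 0.064, 0.0097, 0.0125 and 0.043 under these 4 scalings. Tnnc2 was lowest in all of them, and Tnnt1, Pygm and Tnnc1 were the next 3 in each.

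**Figure D4:**
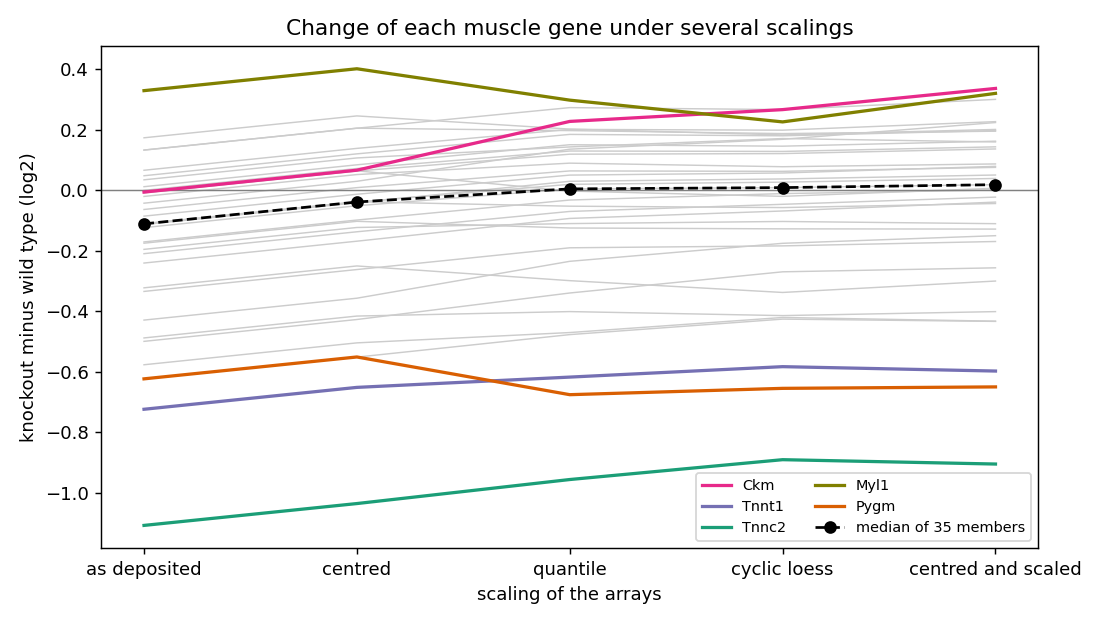
Each line is 1 of the 35 muscle genes and shows its change, knockout minus wild type in log2 units, as deposited and under 4 scalings of the arrays, with the dashed line as the median of the 35. The median moves from -0.11 as deposited to 0.019 with arrays centred and scaled, Ckm moves from -0.0056 to 0.34, and Tnnc2 stays lowest, with Tnnt1, Pygm and Tnnc1 next.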

How the data were processed

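The authors deposited log2 values that, per the submitters' processing notes, were made with Affymetrix Expression Console and RMA (background correction, quantile normalisation, median polish). The sources used here name neither software versions nor a genome build. The table had 35556 rows, of which 21789 carried 1 gene symbol in the platform annotation. Other rows were not tested, and the 999 genes with more than 1 row kept the row of highest mean. Each of the 35 muscle genes had 1 row, and all 35 symbols matched GRCm38.p6 by gene identifier.

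Genotypes were compared over all 5 arrays with limma 3.58.1 in R 4.3.3 (lmFit, eBayes, two-sided, knockout minus wild type), with Benjamini-Hochberg adjustment over 19938 genes and a threshold of 0.05. The number of arrays limits the precision. The labels name a separate mouse for each array. The fit was tested on simulated normal values without the repeats of these data, so the calls here were not checked by it. Alternatives covered the array run, scaling, filters, variance model, array weights, threshold and each array left out. The members and lists were chosen with earlier results of these data known. Genes named were the 35 and, from other lists, up to 3 of lowest p plus any that passed. Upstream sequences and gene order are from RefSeq, GRCm38.p6.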

Additional observations from a re-analysis of the deposited data

How the results depend on the processing

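No paired analysis was possible because the groups share no replicate number. The count of muscle genes that fell, 1 as reported, was 0 with the run as a block, with quantile normalisation, with cyclic loess, with arrays centred and scaled, with genes above the median level only (27 muscle genes, without Pygm), with all rows tested, with robust variance and with array weights. At an unadjusted p under 0.05 limma gave 6, 5, 5, 4, 6, 7, 5 and 1 muscle genes in these settings. Over all genes it gave 3829, 3761, 3919, 3756, 2049, 7147, 3450 and 1917. These are of 19938 genes, except 9969 genes above the median level and 35556 rows with all rows tested. The count of falls was 2 among the 7 muscle genes with 5 different values (Tnnc2 and Tnnt1), beside 331 falls and 270 rises among all 2535 such genes. At an adjusted p under 0.1 it was 2. With each array left out it ran from 0 to 12, and the count of rises from 0 to 3. Over all genes 309 rose and 435 fell, against 0 and 0 with the run as a block, quantile normalisation, cyclic loess or array weights, 101 and 76 with arrays centred and scaled, 55 and 391 among genes above the median level, and 654 and 976 at an adjusted p under 0.1. With each array left out the rises ran from 0 to 3930 and the falls from 0 to 6069. The higher counts came without knockout 2 (2 rises and 9 falls among the 35) or knockout 5 (3 and 12), where the spread of the lone knockout array was taken from wild type. There Myl1 was -0.29 without knockout 2 and 0.95 without knockout 5, Myl2 -0.069 and 0.34, Car3 0.38 and -0.029, Eno3 0.55 and -0.48, and Myl3 -0.20 and 0.11. The median change of the 35 genes was -0.038 with arrays centred, 0.0050 with quantile normalisation, 0.0092 with cyclic loess, 0.019 with arrays centred and scaled, -0.24 over the 7 genes with 5 different values and -0.19 within run 1. Genes whose groups did not overlap numbered 8, beside 31.5% of all genes, or 4 among those 7, and 8 or 9 with a wild-type array left out. They numbered 20 without knockout 2 and 23 without knockout 5, where 1 knockout value is set against wild type. Of all 19938 genes, knockout 5 lay below all wild types in 6214 and above them in 6258. For knockout 2 these counts were 8259 and 5717. Centring, averaged rows and a variance trend each kept 1 fall.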

Other observations

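Some muscle and non-muscle relatives of the 35 genes had values that the comparisons above do not use. Ckb, the creatine kinase of brain and many other tissues and the counterpart of Ckm, fell to 6.23 and 5.97 in knockouts 2 and 5, against 7.23, 7.35 and 7.23 in wild types 3, 4 and 6. This is a change of -1.17 (SE 0.101, limma's adjusted p = 0.0299), or -0.91 after cyclic loess (adjusted p = 0.0904). Blocking on the run gave adjusted p = 0.0766, and leaving out wild type 3, 4 or 6 gave 0.156, 0.177 and 0.202. Ckb was the 1 call among 15 measured non-muscle relatives of the muscle genes, whose median change was -0.068, with 9 changes below 0 and 4 above 0. Over all genes 3.73% passed and 51.1% of changes were below 0. Pygb, the glycogen phosphorylase of brain, was at 5.28 and 5.15 in knockouts 2 and 5, against 5.54, 5.49 and 5.49 in wild types 3, 4 and 6 (adjusted p = 0.084). Car2, a relative of Car3, lay the other way, at 4.20 and 4.64 in knockouts 2 and 5. Wild types 3, 4 and 6 had 3.80, 3.88 and 3.88 (change 0.57, limma's adjusted p = 0.176).

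Trdn, triadin, which holds the calcium release channel at the triad, stood apart from the other genes of its list and was picked out after its values were seen. It was at 8.39 and 7.30 in knockouts 2 and 5, against 6.30, 6.99 and 7.19 in wild types 3, 4 and 6, with a change of 1.02 (SE 0.483, limma's adjusted p = 0.399). Run 1 alone gave 2.09 and run 2 alone 0.22.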
